A study of Caenorhabditis elegans with 2 samples.

Results

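The Wnt ligand and receptor genes of Caenorhabditis elegans were examined for occupancy by ZAG-1, the worm member of the ZEB family of zinc finger and homeodomain transcription factors. The 10 genes, out of 19985 annotated protein-coding genes, were taken from a list: the 5 Wnt ligand genes lin-44, egl-20, cwn-1, cwn-2 and mom-2, and the 5 receptor genes lin-17, mig-1, cfz-2, mom-5 and cam-1. The ChIP-seq libraries came from whole L2 larvae of strain OP83, which carries unc-119(ed3) on chromosome III and the insertion wgIs83. Larvae of both sexes were pooled, and the precipitated protein was eGFP-tagged ZAG-1. There was 1 group with 2 biological replicates and no second genotype or treatment, so ligands were compared with receptors within the same libraries. Which promoter and cells drive the tagged protein is not stated in the labels, and whole larvae do not show in which cells a site was occupied.

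Wnt ligands are secreted lipid-modified glycoproteins that bind Frizzled receptors at the cell surface. The signal passes through Dishevelled to beta-catenins and the TCF factor POP-1, or to pathways that orient cells without them. In worm larvae Wnts set the direction of neuronal migration, the polarity of dividing cells and the position of axons. ZAG-1 is known for its part in neuron differentiation and axon guidance.

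None of the 5 ligand genes had a summit in the list thresholded on the irreproducible discovery rate (the IDR-thresholded list, 1803 peaks). Of the 5 receptor genes 3 had one, mig-1, mom-5 and cam-1. The labels do not state between which peak sets the rate was taken, and 18 of the 1803 peaks overlapped no replicate 2 peak. A place in this list therefore does not by itself mean that both replicates hold the peak. The pooled list, of 16325 entries from both replicates, is labelled as peaks and background for input to IDR, so its summits include background. The 3 receptor sites had the same rank in both lists (899, 1089 and 1762). The summit is the single base where a peak is highest. It was given to the gene with the nearest protein-coding 5′ end within 5 kb and to any gene whose body it lay in, and the bases that can receive a summit by this rule are called the gene's territory. Of all protein-coding genes, 7.76% had an IDR-thresholded summit. Genes with large territories had one more often: 20.0% of genes with a territory of 10 kb or more, against 6.36% of genes under 10 kb. Among the members, 2 of the 4 with a territory of 10 kb or more had one (mig-1 and cam-1, not lin-17 or cfz-2), and 1 of the 6 under 10 kb (mom-5). The counts and densities below are descriptions without a test, since the members were a chosen list and each gene's summits share the same libraries.

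**Figure D1:**
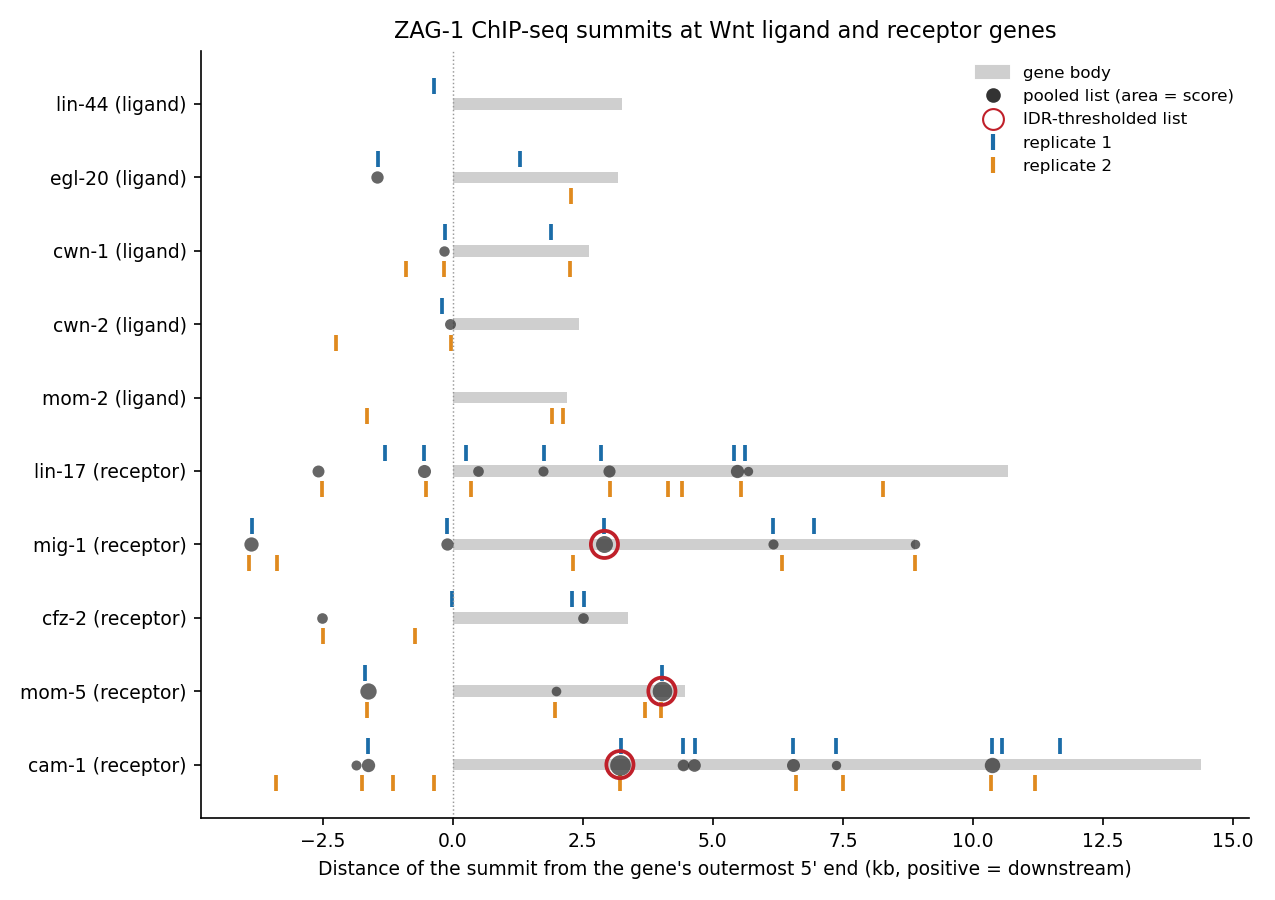
Summits at the 10 genes, by distance in kb from each gene's outermost 5′ end (positive is downstream), with the gene body in grey. Dots are pooled-list summits with area proportional to score, red circles mark the IDR-thresholded summits, and ticks above and below each gene are summits of replicate 1 and replicate 2. The 3 circles lie inside mig-1, mom-5 and cam-1, and the ligand genes have few dots, all upstream of the gene.

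The strongest site of all members lay in cam-1, which encodes a Ror receptor tyrosine kinase with a Frizzled-like cysteine-rich domain. It is shown with the second cam-1 site and the strongest pooled-list entries of 2 ligand genes. Each window is read on the plus strand of ce11, up to 100 bp each side of the pooled-list summit. Capitals mark matches to the E-box pattern CANNTG or to CACACA on either strand. The cwn-2 window was ended before the annotated 5′ end of the gene.

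cam-1, first intron, chrII:9306990-9307190: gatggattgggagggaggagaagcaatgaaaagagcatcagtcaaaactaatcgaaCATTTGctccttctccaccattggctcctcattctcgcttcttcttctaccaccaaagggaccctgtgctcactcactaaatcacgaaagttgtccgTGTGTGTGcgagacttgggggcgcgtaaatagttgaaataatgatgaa

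cam-1, before an internal start, chrII:9299841-9300041: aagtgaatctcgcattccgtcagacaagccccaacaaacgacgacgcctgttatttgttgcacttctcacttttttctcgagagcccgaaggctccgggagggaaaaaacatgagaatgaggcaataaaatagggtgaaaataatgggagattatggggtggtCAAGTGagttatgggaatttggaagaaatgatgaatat

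egl-20, upstream, chrIV:9816885-9817085: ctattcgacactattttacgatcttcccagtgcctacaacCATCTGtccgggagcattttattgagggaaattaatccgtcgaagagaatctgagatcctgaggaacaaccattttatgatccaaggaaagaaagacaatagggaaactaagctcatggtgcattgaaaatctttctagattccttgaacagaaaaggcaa

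cwn-2, upstream, chrIV:10067655-10067815: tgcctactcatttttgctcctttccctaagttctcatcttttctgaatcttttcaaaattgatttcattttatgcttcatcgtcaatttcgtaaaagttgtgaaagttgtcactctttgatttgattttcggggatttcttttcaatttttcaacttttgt

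The cam-1 gene (WBGene00000289, chromosome II, 9295915 to 9310304, minus strand) held a site that both replicates ranked high. The IDR-thresholded peak (9306902 to 9307277) had a score of 44.7 in the pooled list, rank 899 of 16325. In replicate 1 the overlapping peak scored 25.5 (rank 1134 of 24146), and in replicate 2 it scored 16.3 (rank 1061 of 29374). Scores are the authors' own and have a different scale in each list, so ranks were compared. Both replicates placed the site high, and their summits lay 12 and 0 bp from the pooled summit.

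This cam-1 summit lay in intron 1 of the longest transcript, an intron of 5402 bp. It was 3214 bp downstream of the outermost 5′ end and 2237 bp upstream of the 5′ end of the next isoform (9304853). The second strongest cam-1 site (9299753 to 9300128, pooled score 25.0, rank 2364) lay 618 bp upstream of another internal 5′ end (9299323), in an intron of 4766 bp. It overlapped a peak of rank 2154 in replicate 1 and of rank 6998 in replicate 2, and was below the IDR threshold. Because it is also near the 5′ end of the neighbouring gene C01G6.9, the rule gave it to both genes. Another site, in intergenic sequence 1637 bp upstream of the outermost 5′ end, scored 18.7 (rank 3754) and was overlapped in both replicates.

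In all, cam-1 had 8 pooled-list summits, and 0.906% of protein-coding genes had 8 or more. The deposited −log10 q-values of the 8 were 2.50, 2.31, 1.37, 1.15, 0.98, 0.55, 0.12 and 0.02, so the weaker ones may be background entries. Replicates 1 and 2 each listed 9. Overlapping neighbours in the list count as separate summits here, and at cam-1 2 pairs of pooled peaks overlapped, at 9305662 with 9305871 and at 9311941 with 9312168. Its territory of 19.1 kb was longer than that of 98.2% of genes.

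The Frizzled gene mom-5 (WBGene00003397, chromosome I, 9965574 to 9970037, plus strand) acts in embryonic spindle orientation and in larval cell polarity. Its IDR-thresholded peak (9969407 to 9969782) scored 40.2 in the pooled list, rank 1089. The replicates differed there: the overlapping peak scored 36.7 in replicate 1, rank 564, and 4.05 in replicate 2, rank 18586. Position also ties this site to another gene. The summit lay in the 3′ untranslated part of the last exon of mom-5, 4021 bp from its 5′ end, and was assigned through the gene body. The nearest 5′ end was that of tsp-7, a tetraspanin gene on the opposite strand, 3582 bp away. The second mom-5 site lay in intergenic sequence 1634 bp upstream of the 5′ end (9963752 to 9964127). It scored 28.0 (rank 1968), just below the lowest IDR-thresholded score of 29.6. Its overlapping peaks ranked 1549 in replicate 1 and 9971 in replicate 2, so this upstream site too stood higher in replicate 1.

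The Frizzled gene mig-1 (WBGene00003238, chromosome I, 948569 to 957456, minus strand) is known for its role in Q neuroblast and HSN neuron migration. Its IDR-thresholded peak (954352 to 954727) scored 30.1, rank 1762 of the 1803 peaks, close to the threshold. Replicate 1 had a peak with the same summit, with a score of 29.2 and rank 880. No replicate 2 peak overlapped it, which held for 18 of the 1803 IDR-thresholded peaks. The nearest replicate 2 summit in the gene (955143) scored 3.84, rank 20293. The site therefore rests on replicate 1. The summit lay in intron 1, of 4099 bp, 2916 bp downstream of the outermost 5′ end. A pooled peak 3890 bp upstream scored 21.4 (rank 3014) and had overlapping peaks in both replicates, with ranks 3464 and 8387. A promoter peak 111 bp upstream scored 15.9 (rank 5005), with rank 4655 in replicate 1 and no overlapping peak in replicate 2.

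Frizzled genes lin-17 and cfz-2 had no IDR-thresholded summit. LIN-17 acts in asymmetric cell division and, with LIN-44, in the polarity of tail neurons. The lin-17 gene (WBGene00003006, chromosome I, 2706883 to 2717549) had 7 pooled summits with scores from 9.16 to 18.5, the strongest at rank 3840 in an intron 5470 bp from the 5′ end. The strongest lin-17 summit of each replicate ranked 3434 and 3753, so both replicates placed the gene alike, but at different sites (2712289 and 2715147). Of its pooled summits, 1 lay 60 bp upstream of an internal 5′ end (2709953) and another 226 bp upstream of a further one (2707598). The cfz-2 gene (WBGene00000478, chromosome V, 3441504 to 3444877) acts in cell migration and had 2 pooled summits, with scores of 11.9 each (ranks 9069 and 9172). Replicate 1 had a peak overlapping the first and replicate 2 a peak overlapping the second, and neither was overlapped in both.

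**Figure D2:**
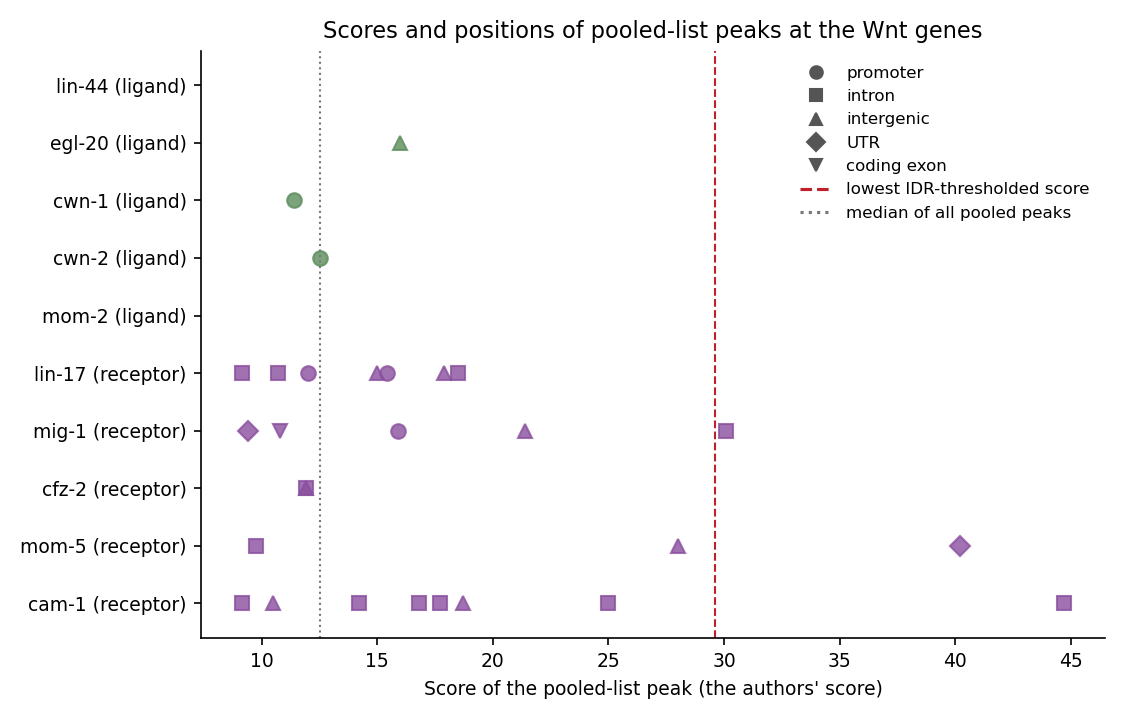
Authors' score (x axis) of each pooled-list peak at each gene, with the symbol for the position class of its summit, green for ligand genes and purple for receptor genes. The dashed line is the lowest IDR-thresholded score (29.6) and the dotted line the median of all pooled peaks (12.5). Ligand peaks lie between 11.4 and 16.0, and only mig-1, mom-5 and cam-1 have a peak right of the dashed line.

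The 5 ligand genes had 3 pooled summits between them, all outside the gene body and all with modest scores. Their deposited −log10 q-values were 0.83 at egl-20, 0.20 at cwn-1 and 0.31 at cwn-2, against at least 2.40 in the IDR-thresholded list. They cannot be told from background entries of the pooled list. EGL-20 is a Wnt made in the tail that guides Q neuroblast migration. At egl-20 (WBGene00001188, chromosome IV, 9812357 to 9815532) the pooled summit lay 1453 bp upstream, with a score of 16.0 (rank 4984). Replicate 1 had an overlapping peak (score 10.9, rank 4955) and replicate 2 had none, its only egl-20 summit being in a coding exon at rank 21291. The redundant Wnt genes cwn-1 and cwn-2 had a pooled summit in the promoter, within 500 bp upstream of a 5′ end. At cwn-1 (WBGene00000857, chromosome II, 130983 to 133598) it lay 167 bp upstream, with a pooled score of 11.4 (rank 10131), against ranks 18322 and 14253 for the overlapping peaks of replicates 1 and 2. At cwn-2 (WBGene00000858, chromosome IV, 10067816 to 10070251) it lay 61 bp upstream, with a pooled score of 12.5 (rank 8211) and overlapping peaks ranked 10471 and 7074. These promoter entries were listed in both replicates, but at or below the median pooled score of 12.5.

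LIN-44, a Wnt of the tail hypodermis, and MOM-2, the Wnt of early embryonic polarity, had no pooled summit. At lin-44 (WBGene00003029, chromosome I, 4126056 to 4129310) only replicate 1 had a summit, 357 bp upstream of the 5′ end, with a score of 6.98 and rank 13098. At mom-2 (WBGene00003395, chromosome V, 8355988 to 8358185) only replicate 2 had summits. The strongest of these 3 lay 1646 bp upstream, with a score of 5.58 and rank 9598. The absence of lin-44 from replicate 2 depends on the assignment rule: a replicate 2 summit 1543 bp upstream of lin-44 (score 6.53, rank 6624) counts for it when the rule is the gene body or 2 kb upstream. It lay at another position than the replicate 1 summit.

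Across lists, 3 ligand genes and all 5 receptor genes had a pooled summit, against 45.5% of protein-coding genes. The pooled and replicate lists hold weak candidates, with deposited −log10 q-values down to 0.02. Of all genes, 59.4% had a summit in replicate 1 and 67.0% in replicate 2. Each replicate listed a summit at 9 of the 10 members. In both replicates it was 8 of 10 (3 ligand genes and 5 receptor genes), against 47.4% of all genes. This counts a summit anywhere in the territory, and at egl-20 and cfz-2 no peak of replicate 1 overlapped one of replicate 2. A summit in these lists was therefore common, and the number per gene separated the groups more. The median number of pooled summits was 1 for ligand genes, 5 for receptor genes and 0 for all genes. The 3 members with 5 or more were lin-17, mig-1 and cam-1, and 2.86% of all genes had as many.

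Receptor genes also have more room for summits, so densities were taken per 10 kb of territory. Ligand territories added up to 23.7 kb (median 4.54 kb) and receptor territories to 63.1 kb (median 13.9 kb), against a median of 4.50 kb over all genes. In the IDR-thresholded list the density was 0 for ligand genes (95% exact Poisson interval up to 1.55) and 0.475 for receptor genes (interval 0.0980 to 1.39). All genes had 0.169. The ligand and receptor intervals overlap widely, and with 3 summits in all a difference between them was not detectable. The intervals cover counting of summits only.

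In the pooled list ligand genes had 1.26 summits per 10 kb (interval 0.261 to 3.69), receptor genes 3.96 (interval 2.56 to 5.84) and all genes 1.60. The receptor interval lay above the value of all genes, and the ligand interval included it. These intervals treat summits as independent, overlapping peaks and background entries among them. They leave out the spread between genes, so this is not a test. Replicate 1 alone gave 2.53 for ligand genes, 4.12 for receptor genes and 2.39 for all genes. Replicate 2 alone gave 3.79 for ligand genes, 4.43 for receptor genes and 2.94 for all genes. In each replicate receptor genes were highest and ligand genes lay above all genes, whereas in the pooled list ligand genes lay below all genes. The gap between ligand and receptor genes was smaller than in the pooled list and within their intervals. With overlapping peaks merged into regions, the pooled densities were 1.26 for ligand genes, 3.48 for receptor genes and 1.51 for all genes.

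**Figure D3:**
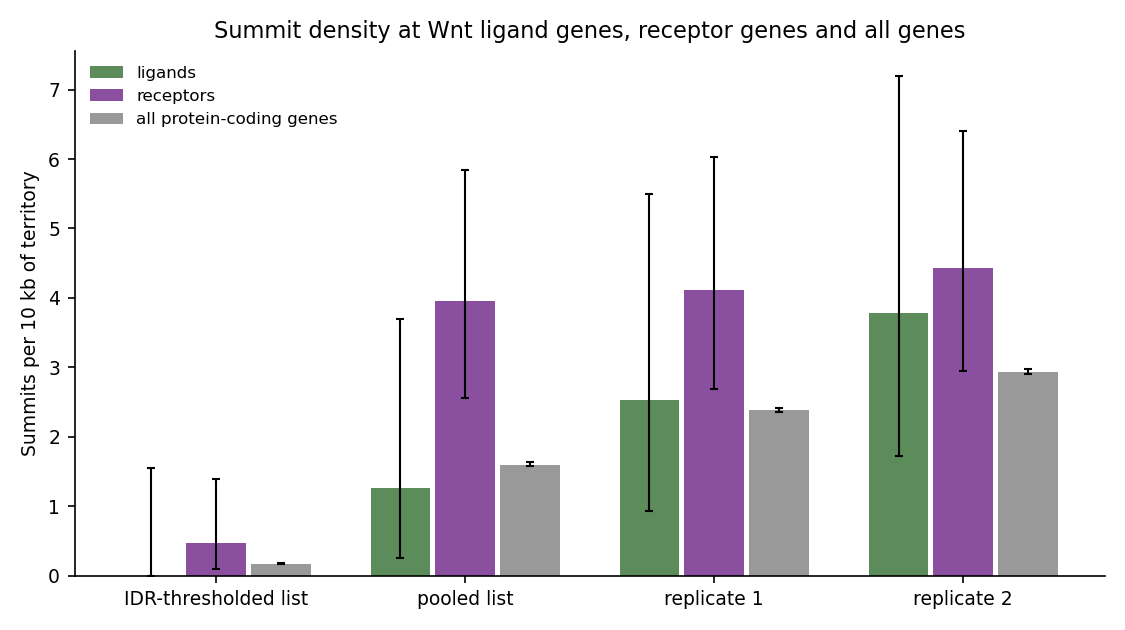
Summits per 10 kb of territory (y axis) for ligand genes, receptor genes and all protein-coding genes in each of the 4 peak lists. Error bars are 95% exact Poisson intervals on the number of summits. Receptor genes stand at 3.96 in the pooled list, against 1.26 for ligand genes and 1.60 for all genes, and ligand and receptor bars overlap within their intervals in every list.

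Single receptor genes did not all stand apart. Pooled densities of ligand genes were 0 at lin-44 and mom-2, 1.57 at egl-20, 2.03 at cwn-2 and 2.82 at cwn-1. Those of receptor genes were 2.00 at cfz-2, 3.60 at mig-1, 4.19 at cam-1, 4.79 at mom-5 and 5.04 at lin-17. Overlapping peaks count separately in these values, as at cam-1 and at lin-17 (summits 2712353 and 2712560), which raises both. By these values cfz-2 lay among the ligand genes, and the other 4 receptor genes lay above every ligand gene. That order held in neither replicate alone. In replicate 1 the ligand gene cwn-1 (5.63) lay above every receptor gene, the highest of which was lin-17 (5.04). In replicate 2 the ligand genes cwn-1 (8.45) and mom-2 (6.89) lay above every receptor gene, the highest of which was mom-5 (6.39). Overlapping replicate 2 peaks raise the values of mom-2 (summits 8357901 and 8358110), mom-5 (9969269 and 9969569) and lin-17 (2711026 and 2711290). The overlapping mom-2 summits were also assigned to a neighbouring gene, so the place of mom-2 above the receptor genes rests on such counting. The ligand territories were 25.3% coding sequence, receptor territories 15.0% and those of all genes 28.1%. Per 10 kb of non-coding sequence the pooled density was 1.69 for ligand genes, 4.66 for receptor genes and 2.23 for all genes. The part of introns and intron length in the difference was not tested.

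Pooled summits of receptor genes lay in the gene body about as often as its share of their territory. Gene bodies made up 57.6% of the ligand territories and 66.2% of the receptor territories. None of the 3 pooled summits of ligand genes and 17 of the 25 of receptor genes (68.0%) lay in the gene body. By class, 12 of the 25 (48.0%) lay in introns, 7 in intergenic sequence, 3 in promoters, 2 in untranslated regions and 1 in a coding exon. Over all 16325 pooled peaks 28.1% lay in introns, 23.2% in promoters and 12.9% in coding exons. Of the 3 IDR-thresholded summits 2 were intronic and 1 in an untranslated region, with none in a promoter. Of all IDR-thresholded summits 19.8% lay in introns, 2.22% in untranslated regions and 40.4% in promoters.

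Agreement between replicates was close to that of all peaks in the pooled list. Of the 28 pooled peaks at the members, 17 (60.7%) overlapped a peak of each replicate by at least 1 bp, against 56.3% of all pooled peaks. By role it was 2 of 3 at ligand genes and 15 of 25 at receptor genes. In the IDR-thresholded list 2 of 3 member peaks did so, against 98.9% of all. Replicate 1 gave the higher standing to mig-1 and mom-5. Their strongest summits lay within the top 3.64% and 2.34% of replicate 1, but at 27.5% and 33.9% of replicate 2, where the strongest summits were other sites of the same genes. Among the 1803 strongest peaks of replicate 1 the members with a summit were mig-1, mom-5 and cam-1, against 7.65% of all genes, and among the 1803 strongest of replicate 2 only cam-1, against 7.64% of all genes. Of the members only cam-1 was within the top 5% of both lists, at 4.70% and 3.61%.

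**Figure D4:**
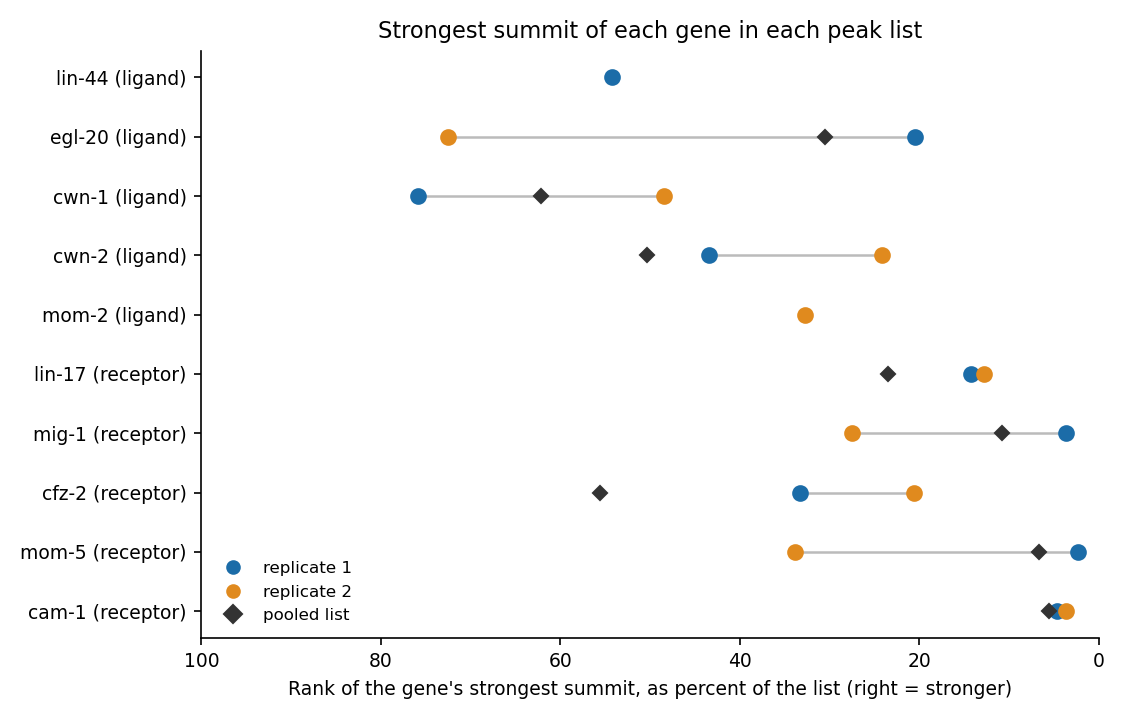
Rank of each gene's strongest summit as a percentage of the peak list (x axis, stronger to the right), for replicate 1, replicate 2 and the pooled list, with a line joining the replicates, whose strongest summits may be different sites. The replicates meet for cam-1 (4.70% and 3.61%) and lin-17 (14.2% and 12.8%) and lie apart for egl-20, mig-1 and mom-5, with replicate 1 stronger, and for cwn-1, with replicate 2 stronger (75.9% and 48.5%).

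Sequence at the member sites was examined for 7 short motifs on both strands within 100 bp of the summit. A match describes the letters only. CAGGTG, the E-box type that ZEB proteins bind, lay in none of the 3 IDR-thresholded windows, and in 1.89% of all IDR-thresholded windows. In the pooled list it lay in 2 of 28 member windows, both in lin-17 introns (summits 2708622 and 2712353), and in 4.45% of all pooled windows. The wider pattern CANNTG, which contains CAGGTG, lay in the cam-1 and mig-1 IDR-thresholded windows and in 56.9% of all such windows. In the cam-1 window printed above it begins 44 bases before the summit.

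GAGAGA lay in the mig-1 and mom-5 IDR-thresholded windows, and in 49.4% of all of them. CGTCTC and ACGCAG lay in the mig-1 window, and in 33.5% and 27.3% of all. CACACA lay in the cam-1 window, where its reverse complement forms the run in capitals at 53 bases after the summit, and in 30.3% of all. TTAAAA lay in none of the 3, and in 17.1% of all. The 3 windows had a GC content of 46.3% at cam-1, 44.3% at mom-5 and 53.2% at mig-1, against 45.6% ± 6.83 (SD) over all 1803 windows. The ligand windows of egl-20, cwn-1 and cwn-2 had 39.8%, 35.3% and 31.3%, against 38.4% ± 7.36 over all pooled windows. Receptor windows of the pooled list ran from 20.4% (mom-5) to 53.2% (mig-1), a range that holds all these ligand values.

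Outside the ligands and receptors, 5 of 32 other Wnt pathway genes had an IDR-thresholded summit (15.6%), read against the 7.76% of all genes. By role these were 1 of 7 secretion genes, 1 of 6 other receptors, antagonists and polarity genes, 3 of 16 cytoplasmic and nuclear genes, and none of 3 Hox targets. The strongest lay in mom-1, the Porcupine homolog that lipid-modifies Wnts (chromosome X, 6296440 to 6296670, score 172, pooled rank 32). It ranked 35 in replicate 1 and 22 in replicate 2. It was in an intron 3472 bp from the mom-1 5′ end and was also assigned to cest-16. Next came mig-5, a Dishevelled gene, with a promoter peak 188 bp upstream (chromosome II, 8185168 to 8185267, score 114, rank 92), which ranked 101 and 131 in the replicates. Both pathway sites stood above every ligand and receptor site.

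The other 3 stood between the mom-5 and mig-1 sites in the pooled list. A peak in an intron of lit-1, a Nemo-like kinase gene (chromosome III), had a pooled rank of 1153, and a second IDR-thresholded summit inside lit-1 had rank 1467. One upstream of kin-19, a casein kinase gene (chromosome III), had rank 1381. A promoter peak of vang-1, the Van Gogh polarity gene (chromosome X), had rank 1470. The 3 Hox targets mab-5, lin-39 and egl-5, set by Wnt signals along the body, had pooled summits only, and 27 of the 32 genes had a pooled summit, read against 45.5% of all genes. Neither share of the 32 genes allows for their larger territories. Per 10 kb of territory the 32 genes had 0.217 IDR-thresholded summits, against 0.169 for all genes.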

How the data were processed

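Per the deposited file lists, the authors made a peak list for each replicate from its alignment and a control alignment, a pooled list from both replicates, and an IDR-thresholded list from these, in ce11. No label or header names the caller or the IDR cut-off, nor any filter. Each list was deposited with a score per peak, a −log10 q-value and the summit offset. The deposited −log10 q-values of the IDR-thresholded list ran from 2.40 to 2.50. Those of the pooled list, labelled as peaks and background for input to IDR, ran from 0.02 to 2.50. Values in both replicate lists also started at 0.02. The ce10 lists were not used, and the files used give no counts, so read depth is unknown.

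Summits (peak start plus offset) were assigned with WBcel235 genes (Ensembl release 115), the same assembly as ce11, to the nearest outermost protein-coding 5′ end within 5 kb and to any gene body holding them. Promoters were 500 bp upstream to 100 bp downstream of a transcript's 5′ end. Overlaps used bedtools 2.31.1, and the rest Python 3.11.15, numpy 2.4.6, scipy 1.17.1 and matplotlib 3.10.9. Sequence came from the RefSeq WBcel235 genome, and no window on chromosome I is printed. The replicates formed 1 group, and nothing was tested between them. Assignment was tested on simulated summits.

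The members, the pathway list and the motifs were chosen with earlier results of these data known. Named genes were all members, the pathway genes with an IDR-thresholded summit, and genes sharing a member's summit or with a 5′ end nearer to it. C01G6.9, which shares a pooled summit, and cest-16, which shares the mom-1 summit, were named after their values were seen. Alternatives were other assignments, overlaps, windows, score cuts and single replicates.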

Additional observations from a re-analysis of the deposited data

How the results depend on the processing

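The IDR-thresholded count of ligand genes stayed at 0 under each alternative run, and cam-1 kept its summit in each. Alternatives that only narrow the main assignment or list could not raise the ligand count. These were the nearest 5′ end alone, a limit of 1 kb or the gene body, and the higher-scoring 50% of peaks. Among the higher-scoring 50% of IDR-thresholded peaks, 1 member, a receptor gene (cam-1), and 2 pathway genes (mom-1 and mig-5) had a summit, against 4.03% of all genes. With the 1803 strongest peaks of a single replicate in place of the IDR-thresholded list, members and receptor genes with a summit ranged from 1 to 3, the 1 being cam-1 without replicate 1. The density of receptor genes then ranged from 0.158 to 0.633 per 10 kb, with 0 for ligand genes, and 5 pathway genes had a summit either way, 3 of them in both (mom-1, mig-5 and lit-1). With the nearest 5′ end alone the mom-5 site was lost, leaving 2 receptor genes, and pathway genes fell to 3. Restricting to peaks seen in both replicates, chosen after seeing the data, left mom-5 and cam-1. In the higher-scoring 50% of pooled peaks 5 members had a summit, against 26.4% of all genes, and the density was 0.421 for ligand genes and 2.38 for receptor genes. With the gene body or 2 kb upstream as the rule, 9 members, lin-44 among them, had a summit in both replicates, against 48.8% of all genes. With summits required within 100 bp, 9 member pooled peaks were shared by both replicates, against 35.9% of all. Within 50 bp of the summit, GAGAGA lay in 1 IDR-thresholded window and CACACA in 0. The alternatives for the pathway genes, the pooled densities and the best ranks were also chosen after seeing the data. The best pooled rank of lin-17 became 4058 and that of mom-5 1968 with the nearest 5′ end alone. Of 118 alternative values for 27 results, 105 stayed within 1.5 times the main count, within the interval of the main density or at the same rank. Values of 0 that could not rise are among them. So are a fall from 3 receptor genes to 2 and a fall in receptor density from 0.475 to 0.158. With counts this small the rule seldom registers a change, so the tally is no measure of stability. No paired analysis was possible because there is only 1 group. Depth is unknown, and 2 libraries limit every statement on the replicates.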
